A study of Drosophila melanogaster with 13 samples.

Results

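The regions described here are the Hox protein binding peaks that lay on the X chromosome of *Drosophila* Kc167 cells. They were chosen by chromosome alone: every peak placed on X in the 12 deposited peak lists, 16892 of 93820 peaks in all. The lists come as 6 conditions called at each of 2 MACS2 thresholds. The stringent lists (q-value 1e-10) held 6326 X peaks of 34149 and the relaxed lists (q-value 1e-2) held 10566 of 59671. Each result is set beside the pooled autosome arms 2L, 3L and 3R, and values are for the stringent lists unless the relaxed ones are named. Arm 2R was not among the arms compared, while whole-list values count every peak of a list.

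Kc167 is an established female embryonic cell line that expresses no Hox protein of its own, and its Exd cofactor stays in the cytoplasm because Hth is lacking. All constructs were GFP fusions driven by an inducible metallothionein promoter in transiently transfected cells, which were sorted for GFP before ChIP with an anti-GFP antibody, so the bound protein was an introduced one throughout. In Experiment 1 (36 bp reads) the fusions were those of Ubx, Abd-A and Abd-B. Experiment 2 (100 bp reads) assayed Ubx again, a mutant Ubx whose DNA-contacting homeodomain residues were replaced, and Ubx made from a bicistronic construct together with Hth (Ubx+Hth). The authors combined the 2 replicates of a condition before calling peaks (Ubx of Experiment 2 had 1), and the input of Experiment 1 was the control for all of them. Each condition is therefore 1 list with no replicate error. The 2 Ubx lists are the only repeat of a protein, and they also differ in experiment and read length.

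Hox proteins are homeodomain transcription factors that set segment identity along the body axis. Ubx, Abd-A and Abd-B are encoded by the Bithorax complex, and Abd-B acts furthest to the posterior. Exd and Hth are homeodomain proteins of the TALE class that bind DNA together with Hox proteins, and Hth carries Exd into the nucleus. The X chromosome is present as a pair in female cells and in a single dose in males, where the dosage compensation complex binds it.

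X held a similar share of most lists. The X peaks numbered 942 of 4830 for Ubx in Experiment 1, 1069 of 5656 for Abd-A and 1636 of 9681 for Abd-B. In Experiment 2 they numbered 821 of 4218 for Ubx, 411 of 1793 for the mutant and 1447 of 7971 for Ubx+Hth. X thus held between 16.9% (Abd-B) and 22.9% (mutant Ubx) of a list, and the shares in the other 4 lists lay from 18.2% to 19.5%. The share in the mutant list had a 95% Wilson interval of 21.0% to 24.9%. Intervals here and below cover the counting of peaks only. With 1 X and 3 autosome arms an exact permutation test over arms cannot go below p = 0.25, so no test was run, and the range over the 3 arms stands as the spread.

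Per Mb of chromosome, X carried more mutant Ubx peaks and fewer Abd-B peaks than any of the 3 autosome arms compared. Density was counted over the span from the first to the last peak of an arm in the 12 lists, 22.4 Mb for X and 75.3 Mb for the 3 arms together. Mutant Ubx had 18.3 peaks per Mb on X and 11.9 to 15.3 on the arms. The ratio of X to the pooled arms was 1.34 (exact interval 1.19 to 1.51). Abd-B had 73.0 peaks per Mb on X and 74.3 to 83.7 on the arms, a ratio of 0.906 (0.857 to 0.957). Both of these X values lay outside the spread of the arms, in opposite directions.

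The other conditions fell within that spread. Ubx of Experiment 1 had 42.0 peaks per Mb on X and 34.2 to 42.2 on the arms, with a ratio of 1.09 (1.01 to 1.17). Ubx of Experiment 2 had 36.6 per Mb on X and 29.6 to 38.0 on the arms, with a ratio of 1.08 (0.998 to 1.17). The repeat of Ubx therefore gave nearly the same ratio at this threshold. Abd-A had 47.7 per Mb on X and 40.9 to 49.2 on the arms (ratio 1.05, 0.978 to 1.12). Ubx+Hth had 64.6 per Mb on X and 58.8 to 69.8 on the arms (ratio 0.990, 0.933 to 1.05).

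The threshold mattered for these ratios. In the relaxed lists the mutant ratio was 1.01 and within the arms, and the mutant list held 1724 X peaks. The Abd-B ratio was 0.879 and still below all 3 arms. Ubx of Experiment 1 turned from above to below 1, at 0.980 (0.925 to 1.04), and Abd-A went to 0.956, both within the arms. Ubx of Experiment 2 stayed above 1, at 1.03 (0.976 to 1.09), so the 2 Ubx lists lay on opposite sides of 1. Both Ubx intervals include 1. Among relaxed mutant peaks with a score (column 5 of the lists, −log10 of the q-value) of 10 or more, X had 32.5 per Mb against 27.8 on the arms, a ratio of 1.17 (1.07 to 1.27) and above all 3. Among those scoring under 10 it had 44.4 against 48.7, a ratio of 0.912 (0.849 to 0.978) and below all 3. The ratio was lower among peaks scoring under 10 than among those of 10 or more in every list, as in Abd-A (0.763 and 1.02), Ubx+Hth (0.844 and 0.991), Abd-B (0.801 and 0.891) and Ubx of Experiments 1 (0.917 and 1.00) and 2 (0.983 and 1.05). The mutant was the only list whose higher-scoring relaxed peaks lay above all 3 arms. By the read numbers in the supplement of the study, the mutant and Ubx+Hth libraries were sequenced far more deeply than the rest. The part of depth in these counts was not tested.

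**Figure D1:**
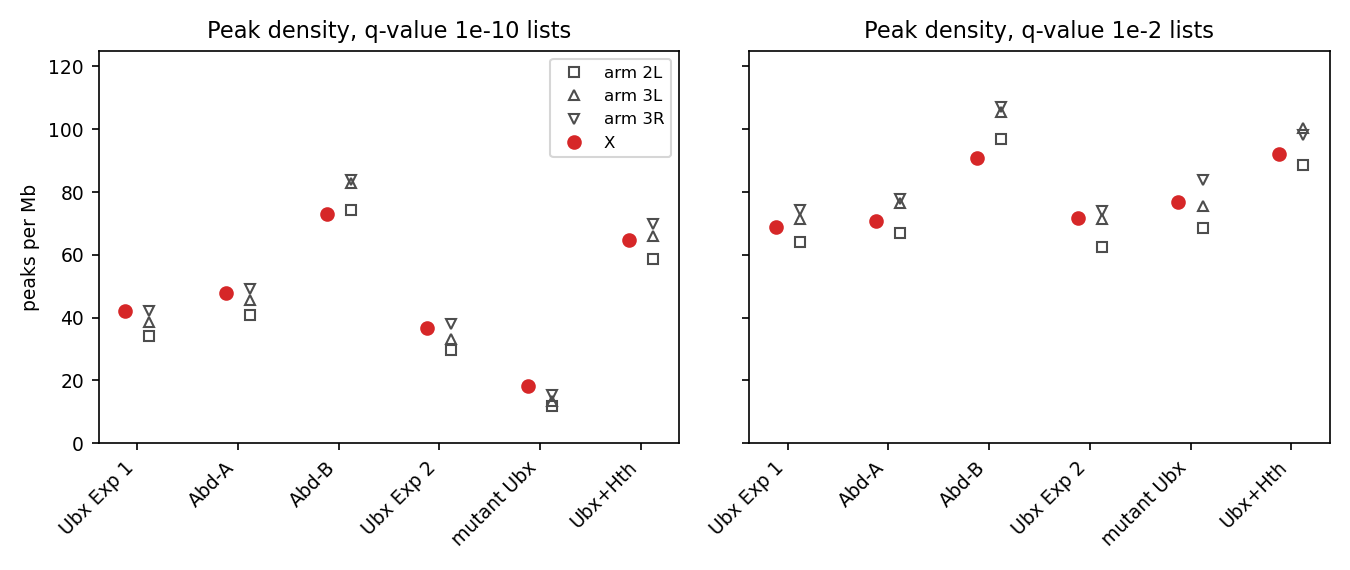
Peaks per Mb (y axis) for the 6 conditions (x axis) at the stringent (left) and relaxed (right) threshold, with X as filled circles and the arms 2L, 3L and 3R as open symbols. In the stringent lists mutant Ubx on X (18.3) lies above its arms (11.9 to 15.3) and Abd-B on X (73.0) below its arms (74.3 to 83.7), while in the relaxed lists only Abd-B lies outside.

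Each list was next set against the Ubx list of its own experiment, to give its length relative to Ubx on each arm. Whether this removes features that an arm shows for all proteins was not tested. For every 100 Ubx peaks of Experiment 2, mutant Ubx had 50.1 peaks on X, and 40.0, 40.6 and 40.3 on 2L, 3L and 3R. The 3 arms were close to one another and X stood apart. The ratio of X to the pooled arms was 1.24 (1.08 to 1.43, treating the lists as independent). For every 100 Ubx peaks of Experiment 1, Abd-B had 174 peaks on X and 217, 215 and 198 on the arms (ratio 0.832, 0.759 to 0.911). The additional Abd-B sites were thus fewer on X relative to Ubx.

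Ubx+Hth had 176 peaks for every 100 of Ubx on X, and 198, 198 and 184 on the arms (ratio 0.916, 0.831 to 1.01). Abd-A had 113 on X and 120, 118 and 116 on the arms (ratio 0.963, 0.871 to 1.06). Both X values were below all 3 arms, but both intervals include 1. The 2 Ubx lists against each other gave 115 on X and 111 to 116 on the arms (ratio 1.01). In the relaxed lists that same comparison of Ubx with Ubx gave 95.7 on X, below the 100.1 to 102 of the arms, a ratio of 0.95 with the same protein in both lists. The Abd-A ratio was nearer to 1 than that and the Ubx+Hth ratio farther from it. The mutant value on X was 107 at that threshold, within its arms (106 to 113), and the ratio turned to 0.974. Abd-B was at 132 on X against 144 to 152, and Ubx+Hth at 128 against 133 to 142, both again below all 3 arms. These per-Ubx comparisons were chosen after the data had been seen.

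**Figure D2:**
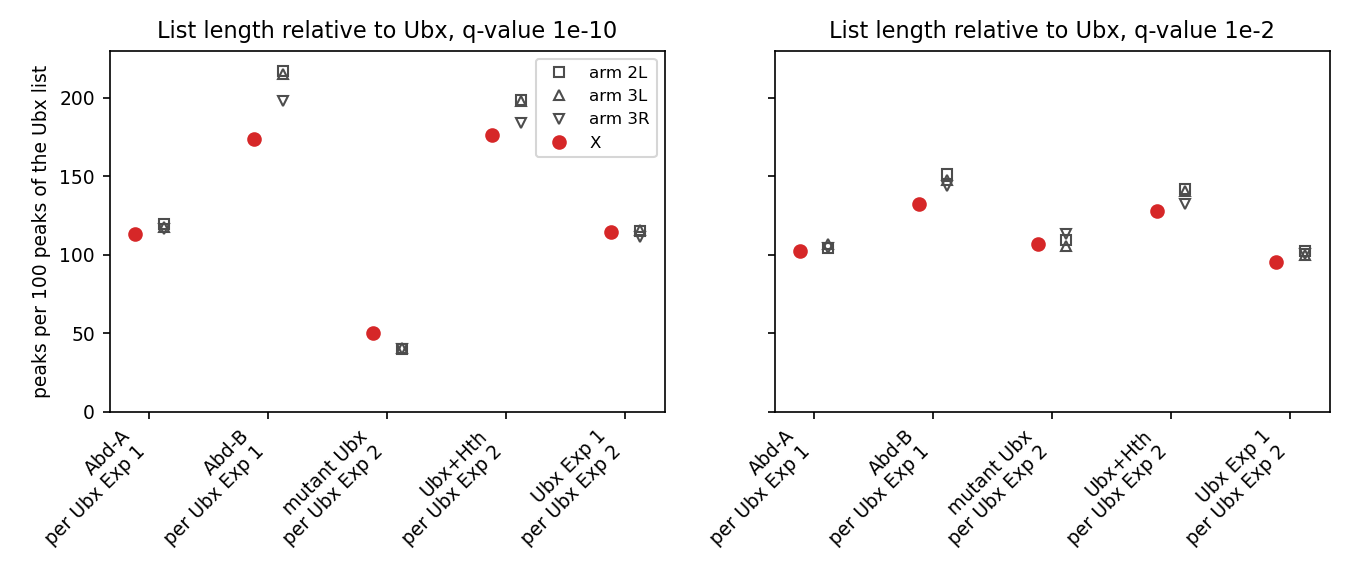
Peaks of a list for every 100 peaks of the Ubx list named under it (y axis), on X (filled circles) and on the arms 2L, 3L and 3R (open symbols), at the stringent (left) and relaxed (right) threshold. In the stringent lists X stands above its arms for mutant Ubx (50.1 against 40.0 to 40.6) and below them for Abd-B (174 against 198 to 217), and the repeat of Ubx on the right lies among its arms.

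Taken over the whole list, the shortfall of Abd-B on X was found among the sites that Ubx did not share. A peak was said to have a partner where a peak of the other list overlapped it by at least 5% of both lengths. Abd-B peaks with a partner in the Ubx list of Experiment 1 numbered 799 on X. Their density was 35.6 per Mb on X against 33.6 on the arms, a ratio of 1.06 (0.980 to 1.15) within the spread of the arms. The 837 X peaks without such a partner had 37.3 per Mb, against 44.2 to 49.2 on the arms, a ratio of 0.794 (0.736 to 0.857). Abd-B peaks without an Abd-A partner gave a ratio of 0.762, and those without a Ubx+Hth partner 0.725, both below all 3 arms. Abd-B peaks with those partners gave 1.05 and 1.02, within the arms.

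Ubx+Hth gave the same picture at a smaller size. Its peaks with a partner in the Ubx list of Experiment 2 had a ratio of 1.07 (0.980 to 1.16). Its 702 X peaks without one had 31.3 per Mb on X against 31.7 to 35.0 on the arms, a ratio of 0.922 (0.847 to 1.002) whose interval includes 1.

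For the mutant the ratio was of similar size with and without a Ubx partner. Mutant peaks with a partner in the Ubx list of Experiment 2 numbered 368 on X, at 16.4 per Mb against 11.0 to 14.0 on the arms (ratio 1.34, 1.18 to 1.51). The 43 X peaks without such a partner had 1.92 per Mb, within the arms (0.872 to 1.92), with a ratio of 1.39 (0.95 to 2.00) to the pooled arms. Seen from the Ubx list, the 314 X peaks that the mutant shared had a ratio of 1.24 (1.09 to 1.41), above all 3 arms. The 507 that it did not share had 22.6 per Mb on X and on the pooled arms alike, a ratio of 1.00 (0.905 to 1.11). A small group of 42 mutant X peaks had no Abd-B partner. Its density was 1.87 per Mb against 0.741 to 1.02 on the arms, a ratio of 2.20 (1.46 to 3.30). The overlap rule can leave a narrow mutant peak inside a wide Abd-B peak without a partner. Against the longer relaxed Abd-B list, 61 mutant X peaks had no partner. The X share with a partner there, 85.2%, lay within the arms (82.7% to 90.6%). How many of the 42 lay inside a wide Abd-B peak was not tested. Mutant peaks without an Abd-A partner had a ratio of 1.70 (1.12 to 2.55), and those without a Ubx+Hth partner 1.83 (0.971 to 3.35).

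Sharing between the Experiment 1 lists, measured as the percent of peaks with a partner, differed on X mainly for the long Abd-B list. Of Abd-B peaks, 48.8% on X had a Ubx partner, against 43.5% of the whole list and 40.4% to 43.4% on the arms. The difference from the pooled arms was 7.19 points (Newcombe interval 4.47 to 9.91). An Abd-A partner was found for 58.3% of Abd-B peaks on X, against 52.5% of the whole list and 48.8% to 52.9% on the arms. In the other direction, 96.6% of Ubx peaks on X had an Abd-B partner, against 97.7% of the whole list and 97.0% to 98.3% on the arms. That difference of −1.23 points turned to 0.465 points when an overlap of 50% was required.

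Ubx and Abd-A shared nearly as much on X as elsewhere. An Abd-A partner was found for 93.6% of Ubx peaks on X (94.2% of the whole list, 93.7% to 95.1% on the arms). A Ubx partner was found for 77.5% of Abd-A peaks on X (76.1% of the whole list, 74.5% to 76.0% on the arms). The intervals of both differences, −0.690 points (−2.60 to 0.967) and 1.87 points (−1.09 to 4.69), include 0.

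In Experiment 2 the mutant shared more of the Ubx peaks on X. A mutant partner was found for 38.2% of Ubx peaks on X, against 34.1% of the whole list and 31.7% to 34.2% on the arms, a difference of 4.89 points (1.13 to 8.71). With each list reduced to its 1793 highest-scoring peaks this difference turned to −1.58 points (−7.44 to 4.16). That step shortens the Ubx list and removes its lower-scoring peaks together, so the parts of length and score cannot be told apart. Between the relaxed lists the share was 63.3% on X (61.3% of the whole list), a difference of 2.23 points (−0.488 to 4.90). With relaxed mutant partners for the stringent Ubx peaks it was 88.8% on X (86.6% of the whole list), a difference of 2.40 points (−0.269 to 4.81). Both intervals include 0. From the mutant side, 89.5% of X peaks had a Ubx partner (89% of the whole list, 85.8% to 92.6% on the arms). Between the relaxed lists it was 70.5% on X (66.9% of the whole list, 63.0% to 66.3% on the arms), a difference of 5.09 points. Of Ubx+Hth peaks on X, 51.5% had a Ubx partner, against 48.6% of the whole list and 46.1% to 49.9% on the arms, a difference of 3.62 points (0.684 to 6.54). Its interval includes 0 without arm 2L (2.95 points, −0.108 to 5.99). Nearly all Ubx peaks were found again with Hth present: 97.8% on X, 98.2% of the whole list.

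The repeat of Ubx gives the scale of agreement for one protein. Of the X peaks of Experiment 1, 73.9% had a partner in Experiment 2 (72.8% of the whole list, 70.0% to 75.1% on the arms). Of the X peaks of Experiment 2, 86.5% had a partner in Experiment 1 (85.3% of the whole list, 84.2% to 85.3% on the arms). The intervals of both differences from the arms include 0. Between the relaxed lists the latter share was 82.7% on X, against 84.2% of the whole list and 82.9% to 85.7% on the arms.

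The other pairs, mostly across the 2 experiments, went the same way by list. For Abd-B peaks the X share with a partner was 69.5% for Ubx+Hth (63.8% of the whole list), 41.8% for Ubx of Experiment 2 (36.9%) and 18.2% for the mutant (14.6%). Among Ubx+Hth peaks 59.2% were matched in Ubx of Experiment 1 (56.1%), 22.3% in the mutant (19%), 69.2% in Abd-A (67.1%) and 86.7% in Abd-B (86.6%). X was above the whole list in all of these, by little in the case of Ubx+Hth peaks in Abd-B.

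A mutant partner was found for 34.0% of X peaks of Ubx in Experiment 1 (29.8% of the whole list) and for 28.3% of those of Abd-A (25.2%). Where most peaks of a list had a partner, X and the whole list were close. For Ubx of Experiment 1 in Ubx+Hth the shares were 95.4% and 95.6%, and for Abd-A they were 96.8% and 97.1% in Abd-B, 92.8% and 92.5% in Ubx+Hth, and 65.2% and 63.8% in Ubx of Experiment 2. For Ubx of Experiment 2 they were 91.6% and 92.4% in Abd-A, and 95.9% and 96.4% in Abd-B. For the mutant they were 92.2% and 89.6% in Ubx of Experiment 1, 90.8% and 91.6% in Abd-A, and 95.6% and 96.4% in Ubx+Hth.

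Over all 30 ordered pairs of lists the X share lay above all 3 arms in 14, below in 7 and within in 9. The interval of the difference lay above 0 in 12 pairs, below 0 in 2 and included 0 in 16. X was above the arms in 5 of 5 pairs for Abd-B and in 4 of 5 for Ubx+Hth, the longest lists. The mutant list was below them in 3 of 5, with the widest gap toward Abd-B, where 89.8% of X peaks had a partner against 92.2% of the whole list and 92.4% to 94.8% on the arms. The 5% rule can leave narrow mutant peaks inside wide Abd-B peaks without a partner. The pairs share lists and the input, so they are not separate measurements.

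**Figure D3:**
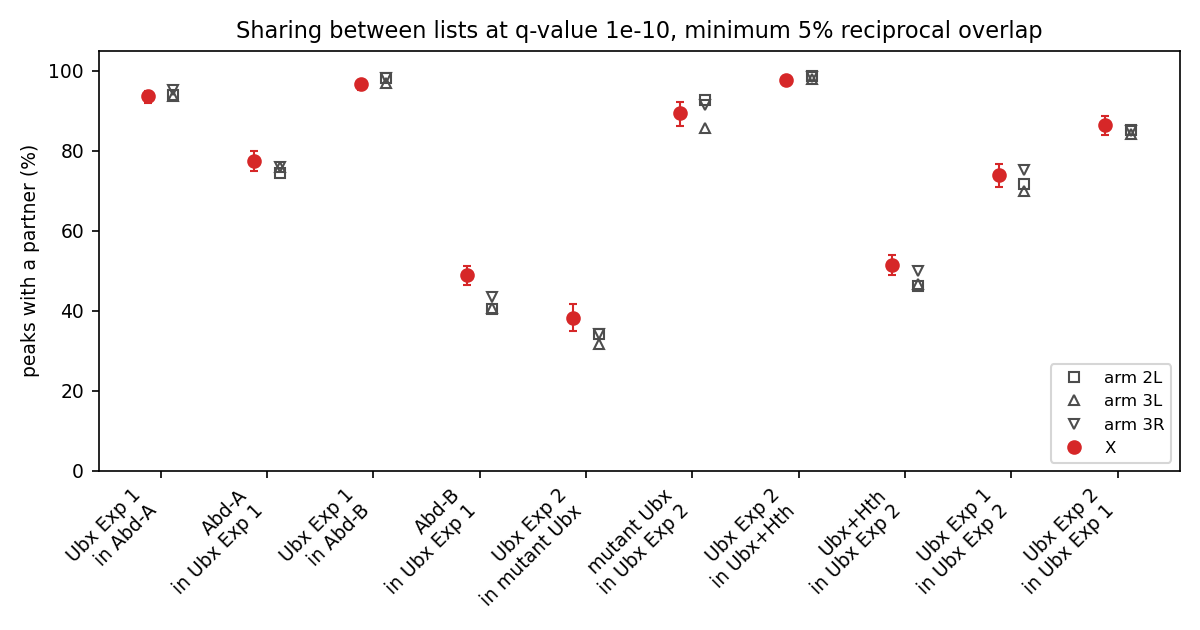
Percent of the peaks of the first list that have a partner in the second (y axis) for the 10 ordered pairs the design compares (x axis). Filled circles are X with 95% Wilson intervals and open symbols are the arms 2L, 3L and 3R, with the clearest gap for Abd-B peaks in Ubx of Experiment 1 (48.8% on X, 40.4% to 43.4% on the arms).

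The greater sharing of Abd-B peaks on X held at every level of score. With the Abd-B list cut by score into 5 parts of equal size, from the highest down, 84.1%, 72.5%, 51.1%, 31.3% and 12.5% of X peaks had a Ubx partner. On the pooled arms the shares were 75.9%, 61.6%, 40.2%, 21.8% and 8.22%, and X was above all 3 arms in each of the 5. For Ubx+Hth the share with a Ubx partner was above all 3 arms in the first 3 parts (92.0%, 80.6% and 51.2% on X, against 87.3%, 67.9% and 46.9%). It was not in the last 2 parts (23.3% and 12.1%, against 25.4% and 11.4%). For Ubx peaks of Experiment 2 with a mutant partner, X was above all 3 arms only in parts 3 and 4, at 31.1% and 22.5% against 20.4% and 13.4%. In the top part 79.4% of X peaks and 78.6% of arm peaks were shared. For Ubx peaks of Experiment 1 the share with a mutant partner on X was above all 3 arms in parts 1 to 4 (73.1%, 41.4%, 28.6% and 18.9%, against 69.5%, 36.2%, 18.8% and 11.5%).

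Peaks with no partner in any of the other 5 lists were almost confined to Abd-B and Ubx+Hth. On X, 425 Abd-B peaks (26.0%) had none, against 32.1% of the whole list and 31.3% to 36.0% on the arms. For Ubx+Hth it was 139 peaks (9.61%), against 10.4% of the whole list and 10.2% to 11.4% on the arms. Ubx had 3 such X peaks in Experiment 1 (0.331% of the whole list had none) and 6 in Experiment 2 (0.427%). Abd-A had 5 (0.619%) and the mutant 7 (1.51%).

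At the other end, peaks with a partner in all 5 other lists made up a larger share of X than of each arm in every list but the mutant. For Ubx of Experiment 1 it was 31.6% on X (28.1% of the whole list), for Abd-A 26.1% (23.2%) and for Abd-B 16.3% (13%). For Ubx of Experiment 2 it was 36.1% (32.2%) and for Ubx+Hth 19.6% (16.6%). For the mutant it was 79.3% on X, against 81.1% of the whole list and 78.8% to 85.7% on the arms. A peak can have a partner in all lists only if the short mutant list has one there.

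Joining overlapping peaks of the 6 lists gave 1811 loci on X and 6670 on the 3 arms. X had 80.8 loci per Mb, just below the 81.4 to 92.2 of the arms. Loci with a peak of a single list were scarcer on X: 576, or 31.8% of X loci (Wilson interval 29.7% to 34.0%), against 37.4% of all loci and 36.8% to 41.3% on the arms. Loci held by all 6 lists were 264, or 14.6% (13.0% to 16.3%), against 11.9% of all loci and 10.0% to 13.1% on the arms. Their density, 11.8 per Mb, was within that of the arms (8.58 to 12.0). Loci of 1 list had 25.7 per Mb on X against 33.0 to 38.1 on the arms. X was also below all 3 arms for loci of 2 lists (11.0 per Mb against 11.8 to 13.3) and just above them for loci of 3 (8.52 against 7.28 to 8.43).

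Most loci of 1 list belonged to Abd-B. There were 422 Abd-B-only loci on X, 23.3% of X loci against 28.6% to 32.4% on the arms, or 18.8 per Mb against 27.4 on the pooled arms. Loci of Ubx+Hth alone were 134 (5.98 per Mb, 6.77 on the arms), and loci of just those 2 lists were 173 (7.72 per Mb, 9.37 on the arms). The commonest shared kind on X, with 316 loci, was held by every list except the mutant, at 14.1 per Mb against 14.3 on the arms. Loci with 2, 3, 4 and 5 lists made up 13.6%, 10.5%, 11.0% and 18.4% of X loci, against 14%, 9.33%, 9.85% and 17.5% of all loci.

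**Figure D4:**
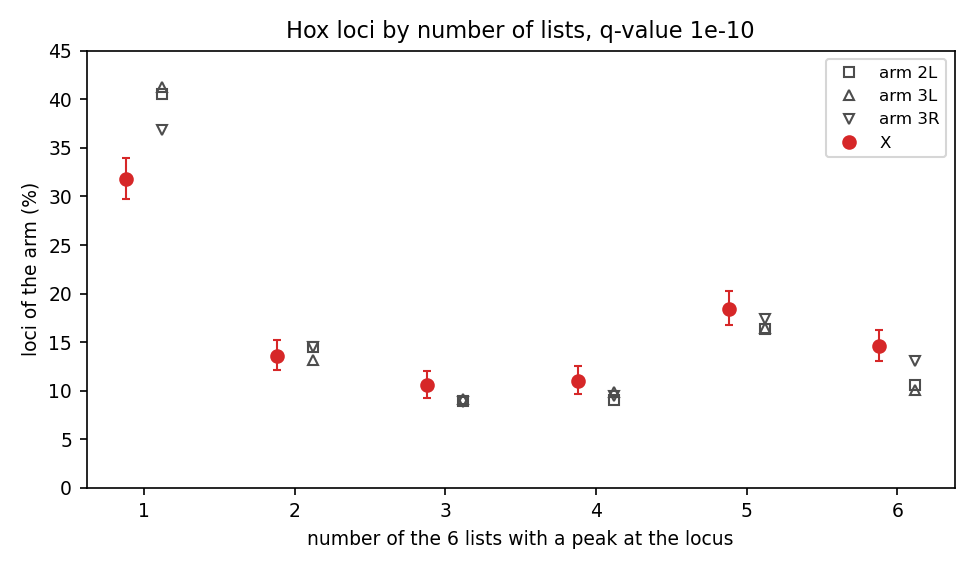
Percent of the loci of an arm (y axis) by how many of the 6 stringent lists have a peak there (x axis), for X (filled circles, 95% Wilson intervals) and the arms 2L, 3L and 3R (open symbols). Loci of 1 list make up 31.8% on X against 36.8% to 41.3% on the arms, and loci of 6 lists 14.6% against 10.0% to 13.1%.

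Along X, every condition had peaks in each of the 22 full windows of 1 Mb. The lowest, median and highest count in a window were 22, 42 and 61 for Ubx of Experiment 1. They were 29, 49.5 and 67 for Abd-A, and 43, 73 and 114 for Abd-B. X windows were fuller than the median autosome window for Ubx (37.5) and Abd-A (46) and less full for Abd-B (79.5). In Experiment 2 they were 19, 37.5 and 54 for Ubx, 5, 19 and 34 for the mutant, and 36, 65.5 and 93 for Ubx+Hth. The medians of the autosome windows there were 31.5, 12 and 65.5. For mutant Ubx 17 of the 22 X windows were above the autosome median, and for Abd-B 7 were.

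Counts varied less from window to window on X than on the arms. The coefficient of variation was 24.5% on X for Ubx of Experiment 1, against 28.7% to 39.7% on the arms. It was 24.6% against 28.1% to 39.1% for Abd-A and 27.9% against 31.7% to 46.0% for Ubx of Experiment 2. X was again below all 3 arms for the mutant (35.3% against 45.5% to 70.0%) and for Ubx+Hth (27.0% against 28.2% to 32.1%). Abd-B was the exception, with 28.5% on X and 26.5% to 31.4% on the arms. The lowest autosome window had 6 peaks of Ubx in Experiment 1, 8 of Abd-A, 5 of Ubx in Experiment 2 and 2 of the mutant, in each case fewer than the lowest X window.

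**Figure D5:**
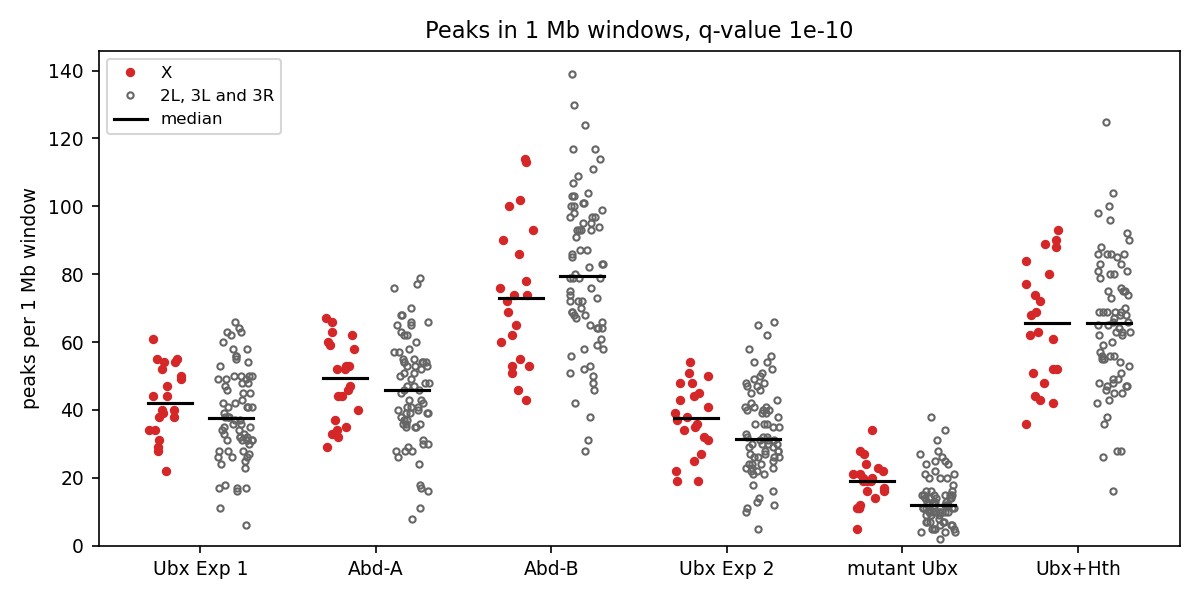
Peaks per 1 Mb window (y axis) for the 6 conditions, each filled circle an X window (22) and each open circle a window of 2L, 3L or 3R (74), with the median as a line. X windows spread less than autosome windows except for Abd-B, and the median X window is higher for mutant Ubx (19 against 12) and lower for Abd-B (73 against 79.5).

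The window with the most peaks over the 6 lists ran from 16000001 to 17000000 on X (coordinates are 1-based, BDGP release 5) with 400. It held 61 and 51 peaks of Ubx in Experiments 1 and 2, 63 of Abd-A, 113 of Abd-B, 22 of the mutant and 90 of Ubx+Hth. The full window nearest the centromere, from 21000001 to 22000000, had the fewest, 173, with 29, 22, 32, 43, 11 and 36 in the same order. The first window at the telomere end came next with 180, and only 5 mutant peaks. The mutant was at its highest elsewhere, with 34 peaks from 7000001 to 8000000, a window that ranked 7 by its total of 328.

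Conditions rose and fell together along X, least so for the mutant. Across the 22 windows Pearson's r was 0.95 between Abd-B and Ubx+Hth, 0.912 between Ubx of Experiment 1 and Abd-A, and 0.881 between the 2 Ubx lists. Between Ubx and the mutant of Experiment 2 it was 0.747, and between Abd-B and the mutant 0.421. Across the 74 autosome windows r for the same 5 pairs was 0.926, 0.961, 0.933, 0.862 and 0.614, so it was higher than on X in all but the first. Between Ubx+Hth and the mutant it was 0.434 on X and 0.715 on the autosomes. Spearman's rho for the 5 pairs on X was 0.954, 0.911, 0.872, 0.720 and 0.50. These are descriptions: the windows are the same for all lists, neighbours are not independent, and all lists share the input. The mutant had from 26.3 (first window) to 73.0 (10000001 to 11000000) peaks for every 100 of Ubx. Abd-B peaks without a Ubx partner made up from 28.3% (20000001 to 21000000) to 61.8% (11000001 to 12000000) of a window's Abd-B peaks.

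Mutant peaks on X also lay closer to one another. The median distance between neighbouring peak centres was 13.0 kb on X for the mutant, and 24.1 to 26.6 kb on the arms. A neighbour within 5 kb was found for 58.2% of mutant X peaks, against 40.3% to 46.3% on the arms, a difference of 15.1 points (9.40 to 20.6). For Ubx of Experiment 2 it was 59.2% on X against 54.0% to 57.2%, a difference of 2.94 points (−0.956 to 6.78), with a median spacing of 8.65 kb on X and 9.39 to 10.9 kb on the arms. In the 4 other lists the difference was 1.17 to 3.12 points, and every one of those intervals includes 0. The difference was thus far larger for the mutant than for any other list. Spacing follows density, and mutant peaks were also denser on X (18.3 per Mb, 13.7 on the pooled arms). The part of density in the spacing was not tested. In the relaxed mutant list, with a density ratio of 1.01, the difference was 3.69 points (1.17 to 6.15). The longest stretch of X without a peak was 782 kb for the mutant and 343 to 447 kb for the others. The neighbour counts were added after the data had been seen.

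Widths of X peaks were close to those elsewhere. The median was 496 bp on X for Ubx of Experiment 1 (479 to 502 on the arms), 567 bp for Abd-A (555 to 572) and 594 bp for Abd-B (577.5 to 616). In Experiment 2 the X medians were above all 3 arms, by a small amount: 475 bp for Ubx (456 to 464), 320 bp for the mutant (284.5 to 315.5) and 501 bp for Ubx+Hth (467 to 487). The 95% order-statistic intervals of the X median and the pooled arm median overlapped in all 6 lists, as in 454 to 504 and 446 to 475 bp for Ubx of Experiment 2. Such overlap is not a test of the difference, and the mutant X interval (302 to 333 bp) left out the arm median of 300 bp. In the relaxed lists the intervals did not overlap for the mutant (329 to 357 and 315 to 328 bp). Nor did they for Ubx of Experiment 1 (633 to 701 and 598 to 629 bp), while in the other relaxed lists they overlapped. Peaks of 1 kb or more made up 15.6% of X peaks for Ubx of Experiment 2 against 11.6% on the pooled arms, and 17.7% against 15.4% in Experiment 1. The shares were 27.8% against 26.2% for Abd-B and 3.65% against 2.14% for the mutant. Peaks covered 6.66% of X for Abd-B, 4.70% for Ubx+Hth, 3.81% for Abd-A, 2.90% and 2.40% for Ubx, and 0.744% for the mutant.

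Very high scores were slightly rarer on X than on the pooled arms in every stringent list, with intervals that left out 0 for Abd-B and Ubx+Hth only. Of Abd-B X peaks, 8.62% were in the highest-scoring 10% of the list (10% of the whole list, 10.5% of the pooled arms), a difference of −1.93 points (−3.43 to −0.291). Of Ubx+Hth X peaks, 8.71% were (10% of the whole list, 10.7% of the arms), a difference of −2.03 points (−3.65 to −0.259). Both lay below all 3 arms. The Abd-B interval includes 0 without arm 3R (−1.51 points, −3.13 to 0.218). The Ubx+Hth interval includes 0 in the relaxed list (−1.45, −2.82 to 0.0302) and for the highest-scoring 25% (−1.04, −3.51 to 1.53). With lists of 1793 peaks both include 0. Abd-B X peaks had a median score of 64.8 against 68.0 on the arms. When the Abd-B list was reduced to its 1793 highest-scoring peaks the density ratio fell to 0.738, so the shortfall on X was larger among the strongest Abd-B peaks.

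In the remaining lists the interval of the difference included 0. The highest-scoring 10% held 9.13% of X peaks for Ubx of Experiment 1 (10% of the whole list), 9.64% for Abd-A (9.99%), 9.74% for Ubx of Experiment 2 (9.98%) and 9.73% for the mutant (9.98%). Ubx of Experiment 1 was also below all 3 arms (9.69% to 12.0%), with a difference of −1.65 points (−3.70 to 0.634). In the relaxed lists the difference was above 0 for Abd-A (0.516 points, −1.12 to 2.30) and Ubx of Experiment 2 (0.590, −1.06 to 2.38). It stayed below 0 there for Ubx of Experiment 1 (−0.170) and Abd-B (−1.82). In the relaxed mutant list, 12.5% of X peaks were in the highest-scoring 10% (9.99% of the whole list, 9.53% of the arms), above all 3 arms. X held 23.0% of the peaks in that top 10% and 15.7% of those in the lowest 10%.

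Among the loci held by all 6 lists, the first 5 by summed rank included the highest X peaks of 4 lists. The locus from 12626625 to 12632173 held the highest-scoring X peak of Ubx in both experiments and of Abd-A. Its scores were 326, 291 and 301 for Ubx, Abd-A and Abd-B of Experiment 1, and 305, 93.7 and 342 for Ubx, the mutant and Ubx+Hth of Experiment 2. By rank these were 3 of 4830, 3 of 5656 and 172 of 9681, and 4 of 4218, 31 of 1793 and 9 of 7971, so the mutant and Abd-B peaks stood lower in their lists than the others. The locus with the best summed rank over all lists lay a little further on, from 12643231 to 12651452, with ranks of 13, 20, 168, 5, 12 and 15 in the same order. Its mutant peak, from 12647576 to 12648427, was 852 bp wide, where the Abd-B peak was 8222 bp.

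The locus from 13782351 to 13785826 had the top X score of Ubx+Hth, 403 (rank 3 of 7971), with 298 for Ubx of Experiment 1, 247 for Abd-A, 345 for Abd-B, 284 for Ubx of Experiment 2 and 85.5 for the mutant. The remaining ones of the first 5 lay from 9475685 to 9480394, with 346 for Abd-B and 317 for Ubx+Hth, and from 2028542 to 2033071, with 277 for Abd-A (rank 5). Scores depend on depth, so their sizes are not compared between lists. Over the 264 X loci held by all lists, the best peak stood at a median of 17.8% of the list from the top for Ubx+Hth, 20.0% to 23.7% for Abd-A, Abd-B and both Ubx lists, and 44.4% for the mutant.

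Abd-B had its strongest X peaks at other places. Its highest, from 3669094 to 3675418 (6325 bp), scored 385 at rank 16 of 9681. The same site scored 89.2 (rank 531) for Ubx of Experiment 1, 92.1 (rank 571) for Abd-A, 84.6 for Ubx of Experiment 2, 30.1 for the mutant and 129 (rank 1136) for Ubx+Hth. The second, from 14973266 to 14975469, scored 384, with 116 for Ubx and 162 for Abd-A of Experiment 1. Both sites thus had peaks of all conditions, at lower ranks. The highest Abd-B X peak with no partner, from 9554911 to 9556209, scored 256 at rank 349. No other stringent list and none of the relaxed lists had a peak there except the relaxed Ubx+Hth list, with a score of 14.7.

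The highest Ubx+Hth X peak without a partner, from 16154635 to 16155335, scored 174 at rank 591. None of the 5 other conditions had a peak there even at the relaxed threshold. By contrast the highest partnerless peaks of Ubx in Experiment 1 (6747438 to 6747692, score 41.1) and of Abd-A (8151704 to 8151984, score 23.9) had a relaxed peak in every other condition. That of Ubx in Experiment 2 (14849254 to 14849494, score 37.7) had one in every other condition but the mutant. Most of those relaxed peaks scored 10 or more themselves, with 38.0 for Abd-A and 35.1 for Ubx+Hth at the first of these sites and 36.8 for Ubx+Hth at the last.

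Mutant Ubx had its highest X peak near the centromere end, from 21764435 to 21764742. It was 308 bp wide and scored 147 at rank 9 of 1793. Ubx+Hth had a peak there with a score of 93.3 at rank 1915, Ubx of the same experiment had only a relaxed peak (28.7), and the 3 lists of Experiment 1 had none at either threshold. The highest mutant X peak without a partner lay close by, from 21773092 to 21773505 (score 62.5, rank 95), and again only Ubx of Experiment 2 had a relaxed peak (21.3). Both peaks were thus seen in Experiment 2 alone, and all lists were called against the input of Experiment 1. Reads were also longer in Experiment 2 (100 bp against 36 bp). The parts of the input and of read length in these 2 peaks were not tested and cannot be told apart. Leaving out the 2 Mb of each arm nearest the centromere left the mutant density ratio at 1.38 (1.23 to 1.56).

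The widest X peaks were also shared. The widest of Ubx in both experiments and of the mutant lay at one site, at 3634614 to 3639092 in Experiment 1, with widths of 4479, 4470 and 3192 bp. Abd-A and Ubx+Hth had theirs at another, of 7505 bp and 8534 bp, the Abd-A one from 7585662 to 7593166. Abd-B scored 307 there (rank 151) and Ubx of Experiment 1 only 62.9 (rank 1060). The widest Abd-B peak, 9681 bp from 12555168 to 12564848, ranked 300 for Abd-B and 7 for Abd-A. No gene names or sequences are given for these peaks, since a release 5 genome or annotation was not used here.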

How the data were processed

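ChIP-Seq peaks of 6 conditions were analysed as the authors deposited them. Per the study's methods and the submitters' processing notes, reads were mapped with Bowtie 1.0.1 to BDGP release 5, handled with SAMtools 0.1.19 and bedtools 2.19.1, combined over replicates, and called with MACS2 2.1.0.20140616 against the Experiment 1 input at q-value 1e-10 or 1e-2. Reads at exons of the transfected genes had been removed. The deposited score is the −log10 q-value of a peak. The lists carry no read counts. The read totals in the study's supplement differ widely between libraries and entered no calculation here.

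Starts were converted to 1-based positions. Partners (minimum 5% reciprocal overlap), loci (1 bp overlap), 1 Mb windows of peak centres, widths and ranks were computed with Python 3.11.15, numpy 2.4.6 and scipy 1.17.1, and the code was tested on simulated data. Partner counts equalled those of bedtools 2.31.1 in 90 of 90 comparisons. An arm's length is the span of its peaks. Intervals (95%) are exact binomial for ratios, Wilson for shares, Newcombe for differences and order-statistic for medians. The ratio of list lengths has a log-normal interval. Figures used matplotlib 3.10.9.

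The named peaks are, on X, the 2 highest-scoring and the widest of each list, the highest of each list without a partner, the first 5 loci of all 6 lists by summed rank, and the fullest and emptiest windows. The region set and these rules were chosen with earlier results of these data known. Alternatives were the relaxed lists, lists of 1793 peaks, peaks within 100 bp merged, 1 arm left out, 2 Mb at the centromere left out, another overlap, the top 25%, and shifted windows.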

Additional observations from a re-analysis of the deposited data

How the results depend on the processing

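No paired analysis was possible because the replicates had been combined before peaks were called, and for the same reason no replicate could be left out. Of 266 values recomputed under an alternative, 243 stayed within the counting interval of the reported value, but 23 of these lay on the other side of no difference. Of 99 recomputed values whose reported interval left out no difference, 21 had an interval that included it. Among these was the density ratio of Ubx in Experiment 1 without arm 2L, at 1.04 (0.959 to 1.12). In the relaxed lists the density ratio of X to the arms was 0.980 for Ubx of Experiment 1 (below 1 rather than above), 0.956 for Abd-A and 1.01 for the mutant, and the ratio of list lengths of mutant to Ubx was 0.974, also on the other side of 1. Also in the relaxed lists, the X median width of Ubx in Experiment 1 was 51 bp above the arms, and the difference for loci of 1 list was −4.80 points. The difference in partners was 5.09 points for mutant peaks in Ubx and −1.96 points for Ubx of Experiment 2 in Experiment 1. The highest window held 97 peaks for Ubx of Experiment 1, 98 for Abd-A, 104 for Ubx of Experiment 2, 111 for the mutant and 126 for Ubx+Hth.

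With lists of equal length the Abd-B density ratio was 0.738. The differences in partners then were −4.46 points for Ubx in Abd-A, −8.31 for Ubx in Abd-B, −4.98 for Ubx of Experiment 2 in Experiment 1, −1.58 for Ubx in the mutant, −4.13 for the mutant in Ubx, −3.20 for Ubx in Ubx+Hth and 8.75 for Ubx+Hth in Ubx. With a 50% overlap Ubx in Abd-B came to 0.465 points. With the top 25% in place of the top 10% the Abd-B difference was −3.79 points. Equal lists hold fewer peaks and only the highest-scoring ones. The cause of these and of the other shifts was not tested. Leaving out any arm or the centromere ends and shifting windows moved none of the values by more than its interval. Merging near peaks changed only the values for loci, also within their intervals. Without replicate lists, differences between conditions cannot be told apart from differences between cultures or libraries.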
